A study of Drosophila melanogaster with 9 samples.

Results

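Glia are the support cells of the fly nervous system, and 9 genes known as their markers, *repo*, *moody*, *Gs2*, *Eaat1*, *Eaat2*, *Nrx-IV*, *nrv2*, *wrapper* and *GLaz*, were followed in the heads of *dLmo* mutants. The members are the probe sets (groups of short oligonucleotides that together give 1 intensity) which the array annotation gives to these genes alone. It gives 1 probe set to each of 8 genes, out of 18769 probe sets tested, and *Eaat1* was not analysed here. Head RNA of untreated adult males was read on 9 Affymetrix Drosophila 2.0 arrays, with 3 arrays per genotype. The gene *dLmo* encodes a LIM-domain-only regulator of transcription, and its allele in *BxJ* is a gain of function, that in *EP1306* a loss of function. Both lines had been outcrossed over several generations to *w;iso*, the control, a *white* mutant stock isogenic for chromosomes II and III. It served as the background control of both lines. How much of the X chromosome, where *dLmo*, *moody* and *Gs2* lie, the 3 genotypes share is not given. Each mutant genotype is 1 line with 1 allele. The labels give an age of 2 to 3 days and describe a single pool of 600 flies whose RNA was divided in 3, while the methods describe 3 groups of 200 heads from flies of 2 to 4 days. With divided RNA, the p-values would measure only technical spread between arrays. *dLmo* itself, as a check of the labels, was read at 676, 623 and 672 in *BxJ*, at 176, 106 and 167 in *EP1306* and at 215, 202 and 115 in the control, on the brighter of 2 probe sets that the study's supplement, and not the annotation, gives to it (*Bx*). Every *BxJ* array of this probe set lay above all others (limma adjusted p = 0.025 against the control), and the *EP1306* arrays overlapped with the control (limma adjusted p = 0.818). On the dimmer probe set it was read at 124, 157 and 156 in *BxJ*, at 21.9, 22.5 and 22.4 in *EP1306* and at 38.9, 46.0 and 23.7 in the control, so that the *EP1306* arrays lay below the control arrays (log2 difference -0.42, limma adjusted p = 0.460).

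In the adult brain, surface glia form the blood-brain barrier, cortex glia wrap the cell bodies of neurons, and astrocyte-like and ensheathing glia fill and border the synaptic neuropil. The barrier depends on septate junctions, bands of adhesion proteins that seal neighbouring cells together. Glia also clear glutamate from synapses through transporters of the EAAT family and turn it into glutamine with glutamine synthetase. Repo, a homeodomain transcription factor, is the classical nuclear marker of nearly all fly glia outside the midline and is required for their differentiation.

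None of the 8 glial genes passed limma's test, at an adjusted p under 0.05, in either mutant against the control or in *EP1306* against *BxJ*. Over all probe sets, 0.288% were called between *BxJ* and the control, 1.14% between *EP1306* and the control and 1.23% between the mutants, so 0 calls among 8 genes is near the background. At an unadjusted p under 0.05 by limma, 2 of the 8 differed in *BxJ* (against 12.1% of all probe sets), 5 in *EP1306* (against 9.8%) and 2 between the mutants (against 10.2%). The methods' t-tests gave the same counts at that unadjusted threshold, and 0, 0 and 0 after Benjamini-Hochberg adjustment. Over the 3 genotypes together, limma's F-test called 1 gene, *nrv2* (adjusted p = 0.0421), against 1.49% of all probe sets, and 4 of the 8 had an unadjusted p under 0.05, against 11.9%. The largest difference among the 8 by the mean was that of *GLaz*, 1.56-fold as high in *EP1306* as in the control, which did not pass the test. For the 7 genes other than *GLaz*, the 95% confidence intervals (CI) of the difference ran at most from 0.783-fold to 1.18-fold in *BxJ* and from 0.788-fold to 1.15-fold in *EP1306*. All folds here are of the intensity plus 16, and all log2 values are log2 of the intensity plus 16.

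**Figure D1:**
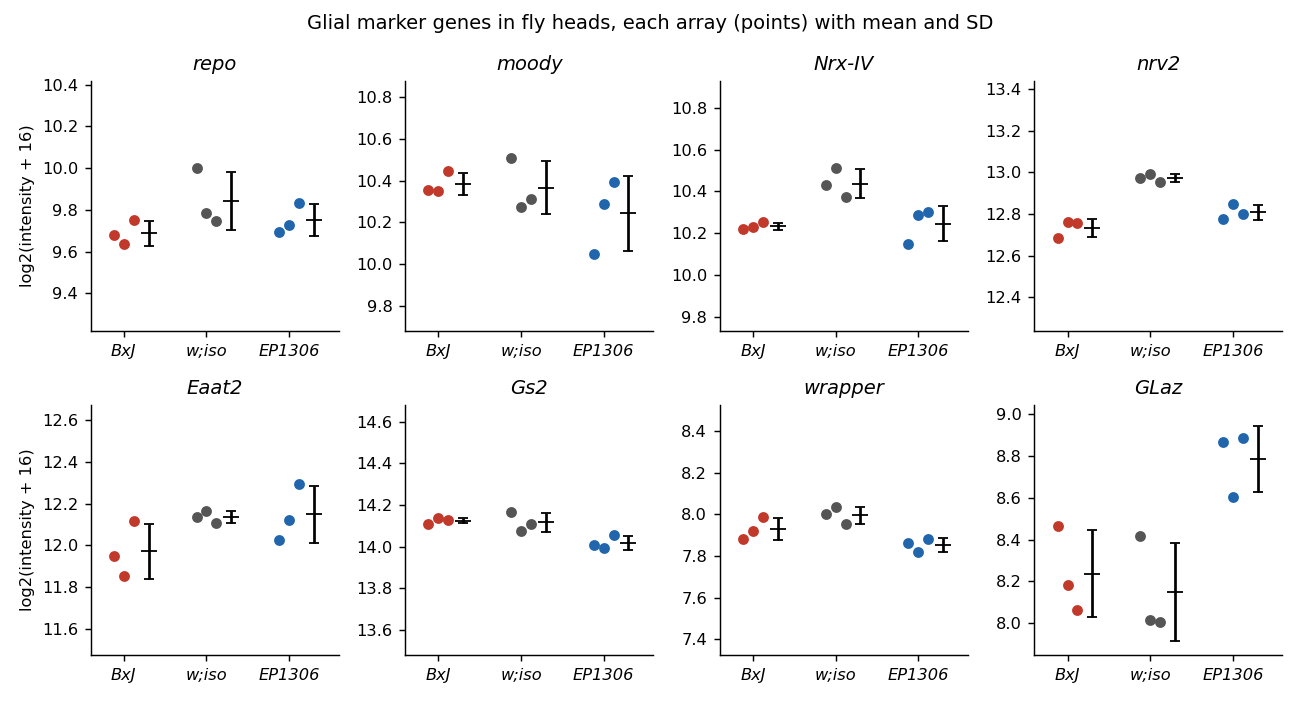
Intensity of the 8 glial genes, as log2 of the intensity plus 16 on the vertical axis, with 1 point for each array and 3 arrays for each genotype on the horizontal axis. Bars are the mean and SD (n = 3), and each panel spans the same range of log2 units. The control arrays of *nrv2* and *Nrx-IV* lie above all arrays of both mutants, and the *EP1306* arrays of *GLaz* above all others.

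*repo*, on chromosome arm 3R, was read at 804, 779 and 847 in *BxJ*, at 811, 831 and 897 in *EP1306* and at 1009, 865 and 843 in the control. Control replicate 1 was the highest of the 9 arrays, and the other 2 control arrays lay within the range of the mutants. Relative to the control, the log2 difference was -0.16 in *BxJ* (standard error 0.076, 95% CI -0.33 to 0.02, limma adjusted p = 0.442) and -0.09 in *EP1306* (95% CI -0.27 to 0.08, limma adjusted p = 0.733). Leaving out 1 array at a time gave -0.20 to -0.08 in *BxJ* and -0.14 to -0.01 in *EP1306*, in both with the smallest difference without control replicate 1. With the mean of the array's spike-in controls as a covariate, the differences were -0.34 and -0.25 (limma adjusted p = 0.535 and 0.449). None of these differences of *repo* passed the test. In whole heads, the number of glia and the RNA per glial cell cannot be told apart.

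Of the barrier genes, *moody* encodes a G protein-coupled receptor of the surface glia that is needed to form the blood-brain barrier. It lies on the X chromosome, as *dLmo* does. Its intensities were 1295, 1292 and 1379 in *BxJ*, 1041, 1236 and 1330 in *EP1306* and 1443, 1221 and 1258 in the control. The 3 genotypes overlapped, with the lowest array in *EP1306* and the highest in the control. The log2 difference was 0.02 in *BxJ* (95% CI -0.20 to 0.24, limma adjusted p = 0.933) and -0.12 in *EP1306* (95% CI -0.34 to 0.10, limma adjusted p = 0.722). In *EP1306* the difference was -0.02 without *EP1306* replicate 1, -0.05 without control replicate 1, -0.20 without *EP1306* replicate 3 and -0.27 with the spike-in covariate, and none of these passed the test (limma adjusted p from 0.623 to 0.943).

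*Nrx-IV*, on 3L, encodes neurexin IV, a transmembrane protein of the septate junction that also takes part in the contact of glia with neurons. It was read at 1176, 1183 and 1203 in *BxJ*, at 1119, 1232 and 1244 in *EP1306* and at 1364, 1443 and 1309 in the control. All 6 mutant arrays lay below all 3 control arrays, and the mutants overlapped with each other. Its log2 difference relative to the control was -0.21 in *BxJ* (standard error 0.055, 95% CI -0.33 to -0.08) and -0.19 in *EP1306* (95% CI -0.32 to -0.07). Neither difference was called (limma adjusted p = 0.244 and 0.212). Between the mutants the difference was 0.01 (95% CI -0.11 to 0.14).

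*nrv2*, on 2L, encodes a beta subunit of the sodium pump that is enriched in glia and also needed for septate junctions. Its intensities were 6560, 6937 and 6896 in *BxJ*, 7009, 7354 and 7116 in *EP1306* and 8028, 8136 and 7904 in the control. The 3 groups did not overlap, with *BxJ* lowest, *EP1306* between and the control highest. On the log2 scale the levels were 12.73 ± 0.044 in *BxJ*, 12.81 ± 0.035 in *EP1306* and 12.97 ± 0.021 in the control (mean ± SD, n = 3 arrays each). When the F statistic was recomputed over all 280 splits of the 9 arrays, the exact permutation p was 0.00357, the smallest those splits can give. The intensity plus 16 was 15.3% lower than in the control in *BxJ* by the mean (log2 difference -0.24, standard error 0.037, 95% CI -0.32 to -0.15, limma adjusted p = 0.0632) and 10.8% lower in *EP1306* (log2 difference -0.16, 95% CI -0.25 to -0.08, limma adjusted p = 0.109). Between the mutants the difference of 0.07 did not pass the test (adjusted p = 0.557 from limma). The F-test's call on *nrv2* was lost whichever of the 9 arrays was left out (adjusted p from 0.0786 to 0.162 from limma), with quantile normalization (adjusted p = 0.077 from limma) and when each array was centred on its bright probe sets (adjusted p = 0.139 from limma). The name of its probe set marks oligonucleotides that may match transcripts of more than 1 gene, although the annotation lists *nrv2* alone.

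The control arrays lay above both mutants for 2 of the 8 glial genes, against 3.63% of all probe sets and 7.71% of the 5048 probe sets with a mean intensity of 200 or more. That difference of shares was not tested, and both mutants are compared with the same 3 control arrays. The array's own control probe sets were higher in the control genotype than in either mutant, while the mutants overlapped. Over the hybridization spike-ins (bacterial and phage transcripts added to each sample), the mean log2 intensity was 8.95 to 9.89 in *BxJ*, 9.23 to 10.2 in *EP1306* and 10.2 to 11.5 in the control, where the lowest control array (10.17) lay just above the highest mutant array (10.15). The mean of the 18S ribosomal RNA probe sets was 7.83 to 9.43, 9.23 to 10.01 and 10.5 to 12.7 in the same order, with no overlap between the control and the mutants. The ratio of the 3′ to the 5′ probe set, a sign of RNA quality, was 1.25 to 1.43 for GAPDH, 2.61 to 4.47 for actin and 4.91 to 6.28 for eIF-4a over all arrays, and for each the control overlapped with both mutants. With the spike-in mean as a covariate, the log2 differences of *nrv2* were -0.20 and -0.13 and its F-test had an adjusted p = 0.377 from limma. For *Nrx-IV* the differences with the covariate were -0.22 and -0.20 (limma adjusted p = 0.637 and 0.551). Because the spike-in mean separated the control from both mutants, the covariate and the genotype overlap in what they describe. Calls over all probe sets also fell with it, from 54 to 4 in *BxJ* and from 214 to 55 in *EP1306*. The larger adjusted p-values are therefore not particular to these 2 genes. The part of the spike-in difference in the values of *nrv2* and *Nrx-IV* was not tested further.

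**Figure D2:**
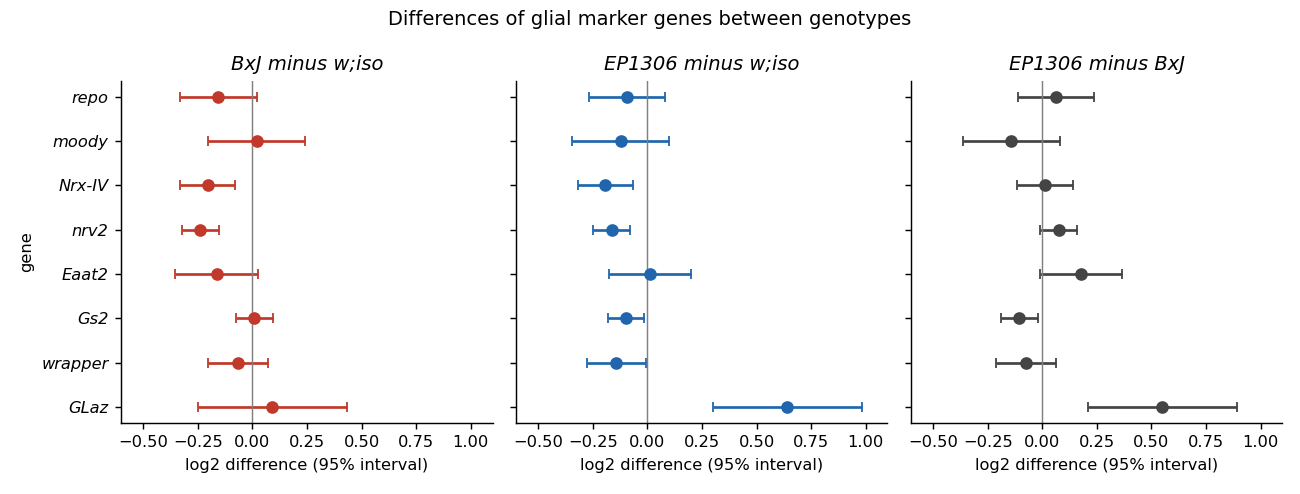
Log2 difference of each glial gene (horizontal axis) for each mutant minus the control and for *EP1306* minus *BxJ*, with points for the estimates of limma over 9 arrays and bars for their 95% intervals, unadjusted for the number of probe sets. The intervals of *Nrx-IV* and *nrv2* lie below 0 in both mutants, and those of *Gs2* and *wrapper* in *EP1306* only. That of *GLaz* lies above 0 in *EP1306*. Between the mutants, the interval of *Gs2* lies below 0 and that of *GLaz* above it.

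Among the genes for glutamate, *Eaat2*, on 2L, encodes a transporter that is related to EAAT1, the main glutamate transporter of fly glia, and carries aspartate and taurine. It was read at 3935, 3683 and 4418 in *BxJ*, at 4159, 4443 and 5011 in *EP1306* and at 4477, 4575 and 4402 in the control. The lowest arrays were in *BxJ* and the highest in *EP1306*, and the groups overlapped. The log2 difference was -0.16 in *BxJ* (95% CI -0.35 to 0.03, limma adjusted p = 0.448), 0.01 in *EP1306* (95% CI -0.18 to 0.20, limma adjusted p = 0.972) and 0.18 between the mutants (95% CI -0.01 to 0.37, limma adjusted p = 0.524).

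*Gs2*, on the X chromosome, encodes glutamine synthetase 2, which makes glutamine from glutamate and ammonia. Its intensities were 17676, 18017 and 17884 in *BxJ*, 16443, 16316 and 17035 in *EP1306* and 18383, 17264 and 17648 in the control. Every *EP1306* array lay below every array of the other genotypes, by a small margin. The difference from the control was 0.01 in *BxJ* (95% CI -0.08 to 0.09) and -0.10 in *EP1306* (95% CI -0.18 to -0.01, limma adjusted p = 0.409) on the log2 scale. The standard error was 0.037 for each difference, so the interval in *BxJ* was narrow on both sides of 0.

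*wrapper*, on 2R, encodes a cell surface protein of the immunoglobulin superfamily with which midline glia and cortex glia enclose axons and neurons. It was read at 220, 226 and 238 in *BxJ*, at 216, 210 and 220 in *EP1306* and at 240, 246 and 232 in the control. Only 3 of its 9 values were above the upper quartile of their own array, against 9 of 9 for each of the other 7 genes. The 3 *EP1306* arrays lay below the 3 control arrays, while *BxJ* overlapped with both. Its log2 difference was -0.07 in *BxJ* (95% CI -0.20 to 0.07, limma adjusted p = 0.585) and -0.14 in *EP1306* (95% CI -0.28 to -0.01, limma adjusted p = 0.478).

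*GLaz* (Glial Lazarillo), on 2R, encodes a secreted lipocalin that binds lipids and is related to human apolipoprotein D, and in flies it is known for its part in resistance to oxidative stress. It was read at 338, 274 and 251 in *BxJ*, at 452, 373 and 458 in *EP1306* and at 326, 243 and 241 in the control. All *EP1306* arrays lay above the other 6, and *BxJ* overlapped with the control, where replicate 1 was highest in each. The log2 levels were 8.79 ± 0.160 in *EP1306*, 8.24 ± 0.208 in *BxJ* and 8.15 ± 0.235 in the control (mean ± SD, n = 3 arrays each). In *EP1306* the log2 difference from the control was 0.64 (standard error 0.149, 95% CI 0.30 to 0.98, limma adjusted p = 0.116), and from *BxJ* it was 0.55 (95% CI 0.21 to 0.89, limma adjusted p = 0.200). For each, the exact two-sided permutation p over the 10 splits of 6 arrays was 0.1, which is the smallest possible with 3 arrays on each side. In *BxJ* the difference from the control was 0.09 (95% CI -0.25 to 0.43, limma adjusted p = 0.765).

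The result for *GLaz* lay close enough to the threshold to depend on the fit. With only the 8542 probe sets of mean intensity 32 or more, fitted and adjusted on their own, the difference between *EP1306* and the control passed (adjusted p = 0.0335 from limma), and with each array centred on its bright probe sets it was 0.67 (adjusted p = 0.0136 from limma). Without the array of each genotype richest in accessory gland transcripts it was 0.53 (adjusted p = 0.608 from limma), and with the spike-in covariate it was 0.24 (adjusted p = 0.596 from limma), while the difference between the mutants was then 0.62 (adjusted p = 0.0173). Leaving out 1 array at a time gave differences of 0.57 to 0.78 and adjusted p-values of 0.0519 to 0.304 from limma.

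Counted over the 8 genes, 2 had *BxJ* arrays that did not overlap with the control (*Nrx-IV* and *nrv2*, both below it), against 31% of all probe sets and 25.5% of those with a mean intensity of 200 or more. Of all probe sets, 27.6% lay below the control in this way and 3.37% above it. In *EP1306* there were 5 (*Gs2*, *Nrx-IV*, *nrv2* and *wrapper* below the control and *GLaz* above it), against 12.3% and 25.2%, with 8.17% of all probe sets below and 4.15% above. Between the mutants there were 3, *Gs2* lower and *nrv2* and *GLaz* higher in *EP1306*, against 17.4% and 28.2%, with 6.1% of all probe sets lower and 11.3% higher. By their means, 5 genes were below and 3 above the control in *BxJ*, with a median log2 difference of -0.11, and 6 were below and 2 above it in *EP1306*, with a median of -0.11. Over the 5048 brighter probe sets these medians were -0.05 and -0.04, and over all probe sets -0.02 and -0.01.

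On a list of 18 further glial genes, 16 were measured and 0 passed the test in either mutant or between them. Medians of the log2 difference were -0.08 in *BxJ* and -0.07 in *EP1306*, with values from -0.23 to 0.21 in both. The list holds *alrm*, a marker of astrocyte-like glia, at -0.10 in *BxJ* and 0.06 in *EP1306*, and *Gat*, a GABA transporter of these cells, at -0.23 in both. *gcm*, the gene that starts the glial fate in the embryo, was read below the array median on all 9 arrays, as was its paralog *gcm2*. Without overlap, the control arrays were above both mutants for 2 of the 16, *Gli*, which encodes gliotactin, a protein of septate junctions, and *ogre*, which encodes an innexin of gap junctions, against the 3.63% of all probe sets and 7.71% of the brighter ones given above. These 2 were picked out after their values were seen, with log2 differences of -0.14 and -0.13 in *BxJ* and of -0.19 and -0.17 in *EP1306*.

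Septate junctions and the handling of glutamate were also followed through genes beyond the glial markers. *Gli*, on the septate junction list, and *Gat*, on the list for glutamate and GABA, are also on the list of further glial genes above. Of 15 septate junction genes, 13 were measured and 0 passed in either mutant or between them, and the median was -0.05 in *BxJ* and 0.03 in *EP1306*. By their means, 3 were above and 10 below the control in *BxJ*, and 7 above and 6 below it in *EP1306*. Of 8 genes for glutamate and GABA, 8 were measured and 0 passed, with medians of -0.06 and -0.02. Of the lipocalins related to *GLaz*, *NLaz* was at -0.07 in *BxJ* and -0.24 in *EP1306* and *Karl* at 0.40 and 0.31, and 0 of these 2 passed.

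*nrv2* is 1 of 3 measured genes for beta subunits of the sodium pump, together with *nrv1* and *nrv3*, the subunit typical of neurons. *nrv3* was read at 7353, 6777 and 7118 in *BxJ*, at 8472, 8403 and 8953 in *EP1306* and at 8858, 8785 and 8859 in the control. In *BxJ* it fell by 0.32 on the log2 scale (standard error 0.042, adjusted p = 0.0273 from limma), its difference in *EP1306* was -0.04 (adjusted p = 0.810), and the mutants differed by 0.28 (adjusted p = 0.0215 from limma). When each of the 9 arrays was left out in turn, the call in *BxJ* held in 2 fits and that between the mutants in 3. *nrv1* had log2 differences of -0.10 in *BxJ* and -0.14 in *EP1306* (adjusted p = 0.480 and 0.508 from limma). In *BxJ*, then, the neuronal subunit gene passed the test and the glial one, at -0.24, fell short of it, while in *EP1306* the differences were -0.04 and -0.16. The name of the *nrv3* probe set carries the same mark as that of *nrv2*, for oligonucleotides that may match transcripts of more than 1 gene. Among the genes named here, both *dLmo* probe sets and those of *Mlp84B*, *Gli*, *ogre*, *Gat* and *futsch* carry it too. Whether *nrv2* and *nrv3* moved unequally was not tested.

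**Figure D3:**
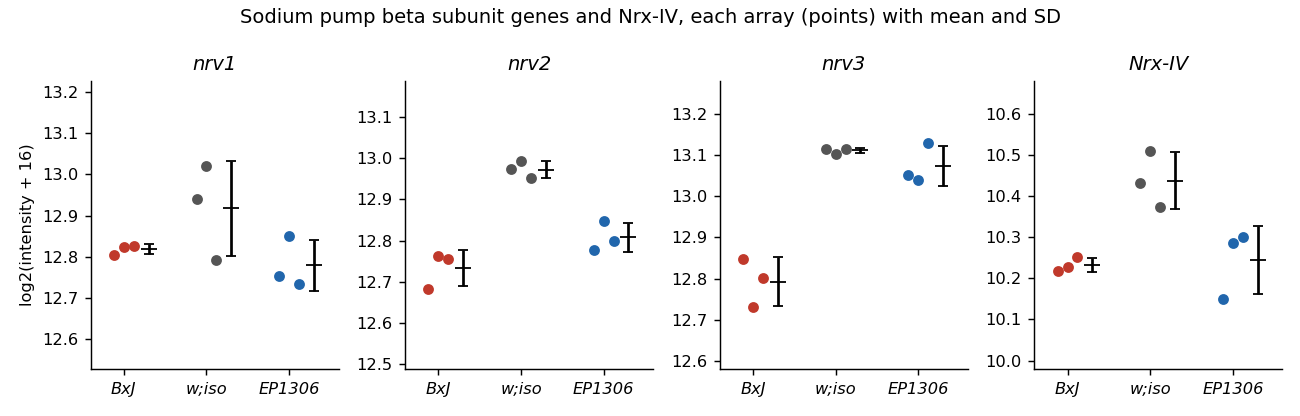
Intensity of *nrv1*, *nrv2* and *nrv3*, which encode beta subunits of the sodium pump, and of *Nrx-IV*, as log2 of the intensity plus 16 on each array (points, 3 for each genotype), with mean and SD. Each panel has its own range of the same width, and the *BxJ* arrays of *nrv3* lie below all others, while the arrays of both mutants lie below the control for *nrv2* and *Nrx-IV*.

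Markers of the other cells in a head were read on the same arrays. Of 13 measured neuronal genes, 1 fell in *BxJ*, *nrv3*, and 13 of 13 were below the control by their means, with a median of -0.25. In *EP1306*, 0 passed, and the median was -0.10. The 13 include *para*, read at 16.3 to 37.0, near the added 16, and above the array median on 7 of 9 arrays. They also include *brp*, whose control arrays read 48.9, 50.4 and 89.4. *elav*, the defining neuronal marker, was read at 396, 272 and 422 in *BxJ*, at 685, 581 and 547 in *EP1306* and at 445, 801 and 727 in the control. Its log2 difference was -0.81 in *BxJ* and -0.08 in *EP1306* (limma adjusted p = 0.272 and 0.930), and control replicate 1 was close to the *BxJ* arrays. *fne*, which encodes an RNA-binding protein of the same family, was called over the genotypes by the F-test (adjusted p = 0.0456 from limma), with -0.74 in *BxJ* (adjusted p = 0.0632). That F-test call held in 1 of the 9 fits without 1 array (adjusted p from 0.0499 to 0.132 from limma). Of the measured neuronal genes, *elav*, *fne*, *Appl*, *futsch*, *cac* and *para* lie on the X chromosome, as *dLmo* does. Their log2 differences in *BxJ* were -0.81, -0.74, -0.46, -0.35, -0.25 and -0.18, in that order. The other measured neuronal genes lie on autosomes, with differences in *BxJ* from -0.33 (*ChAT*) to -0.04 (*nSyb*). The part of the X chromosome in the neuronal median was not tested. In photoreceptors, 8 of 11 genes were measured and 0 passed, and the median was -0.14 in *BxJ* and -0.001 in *EP1306*. Muscle had 7 of 10 measured, and 3 fell in *EP1306*, *Act88F*, *TpnC73F* and *Mlp84B*, by 0.825, 0.90 and 0.745 on the log2 scale (adjusted p = 0.00382, 0.0282 and 0.000698 from limma), while 0 passed in *BxJ*. The call of *TpnC73F* held in 3 of the 9 fits without 1 array, and those of the other 2 in 9. The lists for fat body (7 of 7 measured), hemocytes (9 of 9) and the male accessory gland (10 of 10) had 0 calls in any comparison, with medians of 0.15, 0.13 and 2.14 in *BxJ* and of 0.02, -0.02 and 0.19 in *EP1306*.

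Accessory gland transcripts, which heads should lack, were uneven between arrays. Over replicates 1, 2 and 3, the mean log2 intensity of the 10 genes was 6.89, 6.21 and 8.29 in *BxJ*. It was 6.45, 4.93 and 4.77 in *EP1306* and 4.76, 5.99 and 4.885 in the control. These are differences within a genotype, where the labels describe RNA of a single pool divided in 3. Whether divided RNA could give them was not tested. Without the array of each genotype where this mean was highest, the log2 differences of *nrv2* were -0.24 in *BxJ* and -0.14 in *EP1306* (adjusted p = 0.281 and 0.767 from limma), and its F-test had an adjusted p = 0.325. The mean log2 level of the 8 glial genes was 10.63 to 10.69 in *BxJ*, 10.68 to 10.81 in *EP1306* and 10.70 to 10.83 in the control, so *EP1306* overlapped with the control and *BxJ* lay just below it. The mean in *EP1306* includes *GLaz*, at 0.64 above the control, while 6 of the 8 genes were below it. The median log2 difference of the 8 genes was -0.11 in both mutants. The mean log2 level of the 13 neuronal genes was 9.51 to 9.64 in *BxJ*, 9.70 to 9.87 in *EP1306* and 9.76 to 9.99 in the control. Whether the glial and the neuronal genes shifted by unequal amounts was not tested.

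**Figure D4:**
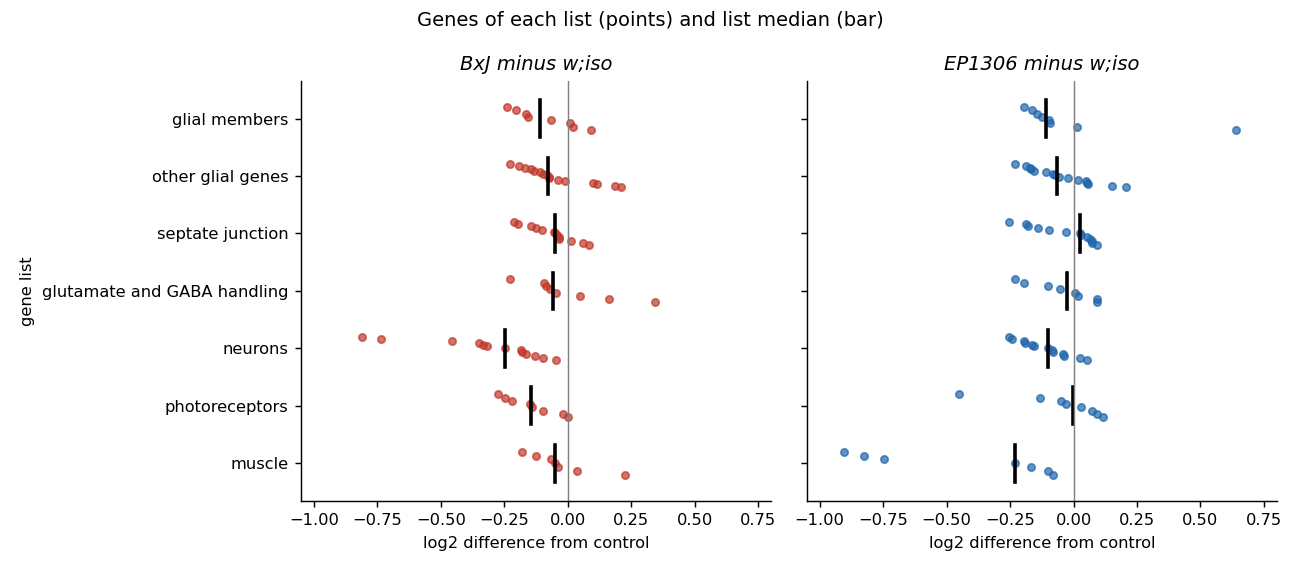
Log2 difference from the control (horizontal axis) of each measured gene of 7 lists, with 1 point for each gene and a black bar for the median of its list, in *BxJ* on the left and *EP1306* on the right. In *BxJ* the neuronal median of -0.25, over genes of the X chromosome and of autosomes, lies furthest below 0. In *EP1306* *GLaz* is the glial point at 0.64. *Gli* and *Gat* each appear in more than 1 list.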

How the data were processed

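The authors deposited intensities on a linear scale for 18952 probe sets and name MAS5, with no version, for their processing. The methods mention a further normalization and the subtraction of the averaged control before the study's tests, without details here, and whether the deposited values include the former is not given. After 183 array controls were set aside, 16 was added and the log2 taken. Array medians then differed by 0.0818 at most, so no scaling was applied, and no filter on low values. All 9 arrays entered 1 linear model (limma 3.58.1, R 4.3.3) with a mean per genotype, moderated by eBayes with the intensity trend. Benjamini-Hochberg adjustment ran over 18769 probe sets, at a threshold of 0.05. The annotation names 1 gene for 13647 of them, several for 402 and none for 4720. Chromosomes are from a RefSeq gene table. Exact permutation tests were two-sided. In lists, the probe set with the highest mean stood for a gene. The fit was tested on simulated data. Arrays of 1 genotype correlated at 0.994 to 0.998, and their number limits the precision. The array's detection calls were not used here.

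All 9 glial genes, *elav* and up to 4 genes of each list that passed in a pairwise comparison are named. *Gli*, *ogre*, *fne*, *alrm*, *Gat*, *gcm*, *gcm2*, *nrv1*, *NLaz* and *Karl* were added with their values in view, and *dLmo* as the mutated gene. *Appl*, *futsch*, *cac*, *para*, *ChAT* and *nSyb* were also added with their values in view, for the chromosomes of the neuronal genes, and *brp* for its low intensity. The members and lists were chosen with earlier results of these data known. Alternatives were pseudocounts of 1 and 64, median centring, quantile normalization, no trend, a minimum mean intensity of 32, a replicate block, fits of 2 genotypes, the methods' t-test and ANOVA, leaving out each array, and all probe sets of a gene. Chosen after seeing the data were the fits that left out the array of each genotype with most accessory gland RNA, with the spike-in mean as a covariate and with arrays centred on the mean of probe sets of intensity 200 or more.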

Additional observations from a re-analysis of the deposited data

Results flagged for a closer look

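Among the genes of the lists followed here, the difference between the mutants itself passed limma's test for 4, against 1.23% of all probe sets. They were 1 of 13 measured neuronal genes and 3 of 7 measured muscle genes, and 0 of the 8 measured glial markers passed. The other lists also had 0 calls between the mutants. These were 16 further glial genes, 13 of septate junctions, 8 for glutamate and GABA, 2 lipocalins and 8 of photoreceptors. The rest were 7 of the fat body, 9 of hemocytes and 10 of the accessory gland. *nrv3*, the neuronal sodium pump subunit, was higher in *EP1306* than in *BxJ* by 0.28 on the log2 scale (adjusted p = 0.0215 from limma), and 3 of 3 *EP1306* arrays lay above all *BxJ* arrays. The muscle genes *Act88F*, *TpnC73F* and *Mlp84B* had log2 differences of -0.79, -1.13 and -0.78 between *EP1306* and *BxJ* (adjusted p = 0.00466, 0.00962 and 0.000397 from limma), each with 3 of 3 *EP1306* arrays below all *BxJ* arrays.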

How the results depend on the processing

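Of 504 recomputed log2 differences of the 8 glial genes, 480 kept their direction and their side of the threshold, 17 changed direction and 7 came to pass it. In many of the 504 the direction could not change. The filter, the fit without the trend, the replicate block, the fits of 2 genotypes and the methods' t-test leave the estimate itself as it was. So does leaving out an array of the genotype outside the comparison. Between *BxJ* and the control, 1 glial gene was called with the filter on low values and 1 without the trend, *nrv2* in both, against 0 as reported. Between *EP1306* and the control, 1 was called with the filter, 1 with the replicate block and 1 with centring on bright probe sets, *GLaz* in each. Between the mutants, 1 was called with the spike-in covariate and 1 with that centring. By the F-test, 2 were called with the filter, and 0 with quantile normalization, by the methods' ANOVA after adjustment and without the accessory-rich arrays. With the spike-in covariate and with centring on bright probe sets the F-test called 1 each, *GLaz* in place of *nrv2*. As reported, the F-test of *GLaz* had an adjusted p = 0.149 from limma. Fits without 1 array called 0 glial genes, in the F-test also, against 1. Nothing in the labels ties arrays of 1 replicate number across genotypes. Correlations of same-numbered arrays' deviations ran from -0.376 to 0.289, and 0 of 9 arrays correlated best with their own number in both other genotypes, so the arrays were treated as sharing only a number. With the replicate block, calls over all probe sets went from 54, 214, 230 and 279 (*BxJ*, *EP1306*, between the mutants, F-test) to 70, 256, 228 and 308. Values near 0 changed sign. In *BxJ*, *moody* went to -0.00313 with median centring, -0.058 without the accessory-rich arrays and -0.148 with the spike-in covariate (-0.0274 to 0.0912 without 1 array), *Gs2* to -0.0142, -0.0133 and -0.0453 (-0.0123 to 0.033), and *GLaz* to -0.374 with that covariate (-0.0248 to 0.226). In *EP1306*, *Eaat2* went to -0.0454 with it (-0.0607 to 0.0733), and between the mutants *Nrx-IV* ranged from -0.0154 to 0.0599 without 1 array. The cause was not tested. Over all probe sets, leaving out 1 array gave 21 to 127 calls in *BxJ*, 103 to 247 in *EP1306*, 113 to 231 between the mutants and 154 to 326 by the F-test. The filter gave 120, 397, 315 and 450, the fits of 2 genotypes 15, 88 and 153, the methods' tests after adjustment 0, 11, 25 and 98 (1936, 1199, 1660 and 1896 unadjusted), the fits without the accessory-rich arrays 48, 35, 130 and 121, the spike-in covariate 4, 55, 193 and 149, and centring on bright probe sets 113, 363, 362 and 463.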
